A study of Mus musculus with 10 samples.

Results

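Isolated enhancers are described here: stretches of cortical chromatin marked by H3K27ac that stand alone in sparse parts of the mouse genome. The members were the autosomal regions of the class enh (read here as enhancer) that were narrower than 8000 bp and lay at least 100 kb from the nearest other region of any class on both sides. Of 50898 regions in the table, 32614 were of the class enh. A total of 29978 of these were autosomal, under the width limit and had a region on both sides, and 650 of them were members. The remaining 29328 served for comparison. The rule used positions and widths only, not the acetylation values.

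The libraries are H3K27ac ChIP-seq of cortex from C57BL/6J mice aged 8 weeks. One group was heterozygous for a knockout of Dnmt3a (Het, n = 5) and the other was wild type (WT, n = 5). The labels named no further allele or treatment, apart from the term cKO in the description of Het replicate 5. That animal was used as Het, as its genotype label states. The animals were taken as 5 litters, each with 1 mouse of each genotype. The pair of replicate 5 was assigned by elimination and is counted here as a litter. Replicates 1, 3 and 5 were male pairs, and replicates 2 and 4 were female pairs. The tissue was whole dissected cortex, so a region acetylated in few cells and one weakly acetylated in many cells cannot be told apart. The labelled tissue could not be checked against marker genes, since the regions carry no gene names.

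H3K27ac is an acetyl group on lysine 27 of histone H3 that marks active promoters and active enhancers, the distal DNA elements that raise transcription of genes on the same chromosome. Enhancers often lie in clusters near the genes they act on, but some sit alone in long stretches with few genes, where they can act over large distances. Dnmt3a is a de novo DNA methyltransferase that methylates neuronal DNA after birth, both at CG sites and at cytosines outside CG, and enhancers are among the elements whose methylation it sets. No sequence is printed and no gene is assigned, because the positions are in the build mm9 and no genome or annotation of that build was used here.

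Values are pseudo-counts, the read counts of a region adjusted by the authors to one common library size. The reads behind them, recovered by inverting that adjustment, numbered 2771534 (WT replicate 5) to 8453140 (Het replicate 2) over all regions of a library. A member held a median of 15 reads in WT replicate 5, the shallowest library, and 49.5 in Het replicate 2, so counting error weighs most on single members in WT replicate 5. The isolated enhancers together held between 0.439% and 0.55% of the signal of each animal. Their share was 0.481% ± 0.044 for the WT animals and 0.485% ± 0.0398 for the Het animals (SD, n = 5 each), a difference smaller than the spread.

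The isolation is that of the regions present in the table. Numbers of the class enh run along the chromosomes up to 45320, and 12706 of them are not among the regions used here. Of the members, 549 (84.5%) had such an absent number directly beside them, against 39.9% of the other enhancers. The 101 members with no absent number on either side are given as a separate alternative where it matters.

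The isolated enhancers were short and mostly weak, and their signal followed their width. Their median width was 1831 bp, with a 10th to 90th percentile range of 938 to 3767 bp. The median signal was 33.0 pseudo-counts, from 11.9 in the weakest to 171 in the strongest member. Across members, log2 width and log2 signal correlated at r = 0.94 (n = 650 regions, all measured in the same 10 libraries). Per kb of width, the median was 18.9 pseudo-counts and the 10th to 90th percentile range was 15.0 to 24.1. The distance to the nearest region had a median of 157741 bp and reached 1711753 bp. In 42 members it was 500 kb or more and in 6 members 1 Mb or more.

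The neighbours of an isolated enhancer were most often enhancers, though less often than those of the other enhancers. Of the regions directly flanking members, 62.5% were of the class enh, 32.8% were promoters (prom) and 4.69% belonged to uaProm, whose meaning is not given in the labels or the table. For the other enhancers these shares were 72.7%, 24.6% and 2.64%. Both neighbours were enhancers for 272 members and both were promoters for 86. A total of 278 members had another member as a direct neighbour, in 158 neighbouring pairs. The longest unbroken row held 6 members on chromosome 1, between 26.3 and 30.5 Mb. Members made up 2.01% of all autosomal enhancers, from 0.917% on chromosome 11 to 2.99% on chromosome 18.

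The strongest isolated enhancer was chr5:19250239-19254299, 4060 bp wide and 157850 bp from its nearest neighbour. Its WT values were 166, 199, 144, 229 and 151 pseudo-counts in replicates 1 to 5, and its Het values were 156, 185, 192, 153 and 131. The genotypes overlapped, and the highest values were those of the female WT replicates 2 and 4. It was also the densest member, with 42 pseudo-counts per kb. The next by mean signal were chr2:96553366-96559903 with 160.2 pseudo-counts, chr10:104719673-104727169 with 153, chr17:90051084-90058142 with 152 and chr14:87553232-87557646 with 144. All 5 were wider than 4000 bp. After the strongest member, the densest were chr1:65379657-65383196 and a region on chromosome 18 (number 20450), with 33.8 pseudo-counts per kb each. The widest members were chr4:7773145-7780837 (7692 bp, 140.2 pseudo-counts) and the chromosome 10 region just named (7496 bp). The weakest were chr1:189271604-189272442 with 11.9 and chr2:69288929-69289890 with 12.1 pseudo-counts.

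The most remote member was chr16:83020773-83022720, with 1814964 bp to the region before it and 1711753 bp to the region after it. Its signal was 27.6 ± 2.57 pseudo-counts over WT animals and 27.8 ± 6.12 over Het animals (SD, n = 5 each). The next was chr1:28863484-28864845, 1327086 bp from its nearest neighbour, with 39.4 ± 7.98 in WT and 34.8 ± 4.56 in Het. The third, chr8:6010089-6012484, held 55.3 ± 14.9 in WT and 52.9 ± 13.4 in Het. Region chr1:150553598-150555733 held 36.2 ± 7.9 and 31.3 ± 9.36, and chr6:10708044-10710100 held 40.6 ± 8.82 and 41.5 ± 4.91. In 4 of these 5 the difference between the genotype means was smaller than the SD of either genotype, and at chr1:28863484-28864845 it was about as large as the Het SD and smaller than the WT SD. Distance alone was a weak guide to strength: log2 distance to the nearest region and log2 signal per kb correlated at r = 0.11 across members (n = 650 regions).

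The regions beside the limits of the rule are given for reference. Just inside the distance limit lay chr7:124000042-124002248 (100021 bp from its neighbour, 45.5 pseudo-counts) and chr13:64121690-64124020 (100069 bp, 42.5). Just outside it lay chr17:45103109-45108805 (99812 bp, 95) and chr12:75949615-75952164 (99699 bp, 45). Isolated enhancers of 8000 bp or more numbered 5 and were not members, the narrowest being a region of 8679 bp on chromosome 18 with 159 pseudo-counts. A further 9 enhancers, first or last on an autosome, had a gap on one side only and were left out.

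Because signal followed width, members were set beside other enhancers of matched width, that is, the 29328 others weighted so that each 500 bp bin of width held the same share as among members. The matched median was 30.1 pseudo-counts against 33.0 for members, and 17.4 against 18.9 per kb. The ratio of medians was 1.09 over the mean of all animals and stayed between 1.07 and 1.13 under the alternatives run. By class of width, the median signal of members and others was 17.2 and 15.8 pseudo-counts below 1000 bp and 26.3 and 24.8 at 1000 to 2000 bp. It was 48.4 and 48.5 at 2000 to 4000 bp and 102 in both from 4000 bp. Width was not matched inside these classes, so equal medians there do not show equal signal at equal width. Per kb of width, members were above others in each class, with 19.4, 18.6, 19.3 and 19.5 pseudo-counts against 18.1, 17.0, 17.7 and 18.6. The members varied between animals about as much as other enhancers. The median SD of log2 values around the sex and genotype means was 0.285 for members and 0.30 for matched width, or 0.287 when mean signal was matched as well.

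The ratio of the members' median to the matched median differed between animals. It was 1.05, 1.17, 1.08, 1.19 and 1.00 in WT replicates 1 to 5 and 1.03, 1.10, 1.13, 1.11 and 0.956 in Het replicates 1 to 5. The mean was 1.10 ± 0.0802 for WT animals and 1.06 ± 0.0715 for Het animals (SD, n = 5 each), so the genotypes overlapped. By sex, the ratio was 1.14 ± 0.0459 in the 4 females and 1.04 ± 0.0609 in the 6 males (SD). Females ranged from 1.10 to 1.19 and males from 0.956 to 1.13, with one male, Het replicate 3, inside the range of the females. The strongest 5% of all regions, whose share shows how concentrated a library is, held 30.1% to 33.6% of the signal in females and 28.2% to 33.2% in males. Its part in the ratio was not tested.

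**Figure D1:**
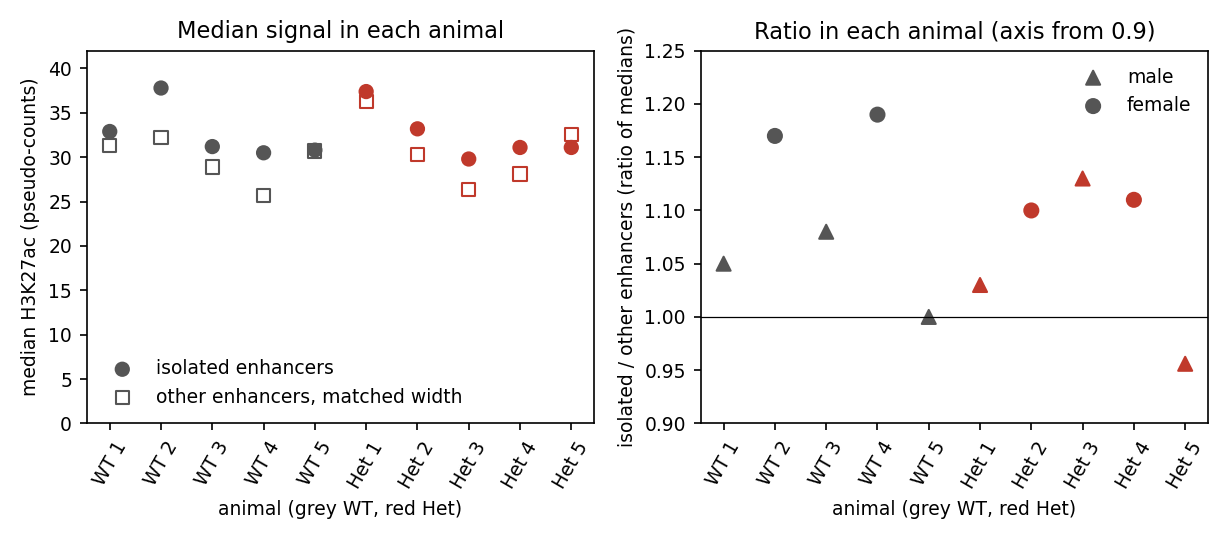
Median H3K27ac of the isolated enhancers and of other enhancers of matched width in each of the 10 animals (left, pseudo-counts), and the ratio of both medians (right, axis starting at 0.9, triangles male, circles female, grey WT, red Het). The 4 females lie between 1.10 and 1.19, while 5 of the 6 males lie at or below 1.08; the remaining male, Het replicate 3, is at 1.13.

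The first comparison asked whether H3K27ac at isolated enhancers differs between Het and WT littermates. No member passed limma's test (adjusted p under 0.05 over all 50898 regions, model with sex and genotype), beside 0.00196% of all regions, which is 1 region. At an unadjusted p under 0.05 there were 12 members (1.85%), beside 2.42% of enhancers of matched width and 2.10% of all regions. Of these members, 7 were higher and 5 lower in Het. Over all regions, 737 were higher and 330 lower in Het. The limma-voom fit on recovered reads called 0 members, beside 0.00196% of all regions, and 10 members (1.54%) had an unadjusted p under 0.05, beside 2.21%. With the litter as a block, 17 members (2.62%) had an unadjusted p under 0.05, beside 4.63% of all regions. In the authors' deposited table, too, no member had an FDR under 0.05, and 11 had a p-value under 0.05. The share of all regions under these limits was not taken for the authors' test, so the counts have no such share beside them.

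The median log2 difference of members, Het minus WT, was 0.0081, with 340 above and 310 below 0. It was 0.036 over enhancers of matched width and 0.0092 over all regions. After an abundance-dependent loess scaling the members' median was -0.022, and after median-of-ratios scaling it was -0.013, so its sign is not settled by these data. By litter, the members' median was 0.16, -0.16, -0.017, 0.037 and 0.032 in replicates 1 to 5, beside 0.17, -0.073, -0.10, 0.10 and 0.085 for matched width. Litters 1 and 2 had the medians farthest from 0, with opposite signs. A member was higher in Het in 5 of 5 litters in 15 cases (2.31%), beside 3.53% of all regions, and lower in 5 of 5 in 11 cases (1.69%), beside 2.46%. The 95% interval of the difference was bounded by 1.5-fold on both sides in 71.4% of members, fewer than the 79.6% of all regions.

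**Figure D2:**
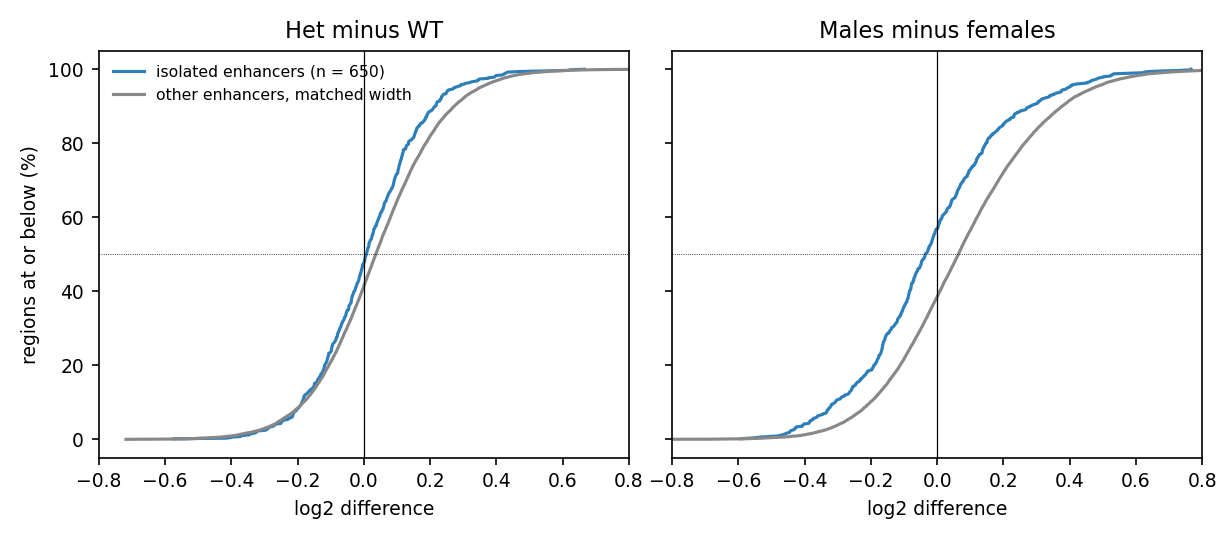
Cumulative distribution of the log2 difference Het minus WT (left) and males minus females (right) for the 650 isolated enhancers (blue) and for other enhancers of matched width (grey); the vertical axis is the percentage of regions at or below each value. For genotype the medians are 0.0081 and 0.036, and for sex they are -0.036 and 0.064.

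The members nearest to a difference between genotypes are given as measured, since none passed the adjusted threshold and every adjusted p was 1.00 after rounding. Region chr3:55793624-55795688 had WT values of 36.4, 48.7, 40.9, 44.0 and 47.5 pseudo-counts in replicates 1 to 5, and Het values of 44.3, 29.1, 25.9, 25.6 and 22.9. Litters 2 to 5 were lower in Het and litter 1 was higher, with its Het animal inside the WT range. The means were 43.5 ± 5.02 in WT and 29.6 ± 8.53 in Het (SD), a log2 difference of -0.57 ± 0.19 (SE).

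Region chr4:35986983-35987807, only 824 bp wide, had WT values of 12.4, 14.5, 12.9, 15.3 and 12.6 pseudo-counts and Het values of 29.5, 22.5, 27.6, 16.8 and 16.7. Every Het animal was above every WT animal, and Het was higher in 5 of 5 litters. The means were 13.6 ± 1.29 and 22.6 ± 5.94 (SD), a log2 difference of 0.67 ± 0.25 (SE). Its mean of 18.1 was close to the 10th percentile of members, 17.7, so few reads stand behind each value.

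A strong member, chr13:36981876-36988450, held 110.1, 135, 117, 127 and 132 pseudo-counts in WT and 138, 133, 144, 156 and 164 in Het. Het was higher in 4 of 5 litters, and only the Het animal of litter 2 lay within the WT range. The log2 difference was 0.24 ± 0.11 (SE). The other members with the smallest p on the higher side were chr11:36754619-36755545 (0.62 ± 0.28), chr8:80878586-80879621 (0.62 ± 0.28) and chr15:51302059-51304080 (0.43 ± 0.20). On the lower side they were chr4:78696707-78700098 (-0.34 ± 0.14), chr2:178971889-178974330 (-0.34 ± 0.16), chr4:68192387-68193838 (-0.42 ± 0.20) and chr17:4072673-4074130 (-0.40 ± 0.19, log2 ± SE). Each of these 4 lower members was below WT in 4 of 5 litters, whereas chr15:51302059-51304080 was above WT in only 3 of 5. Single libraries carried some of these values: chr4:78696707-78700098 was at -0.21 without WT replicate 2 and -0.22 without Het replicate 4. Likewise, chr15:51302059-51304080 was at 0.28 without WT replicate 4 and chr8:80878586-80879621 at 0.41 without WT replicate 5.

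**Figure D3:**
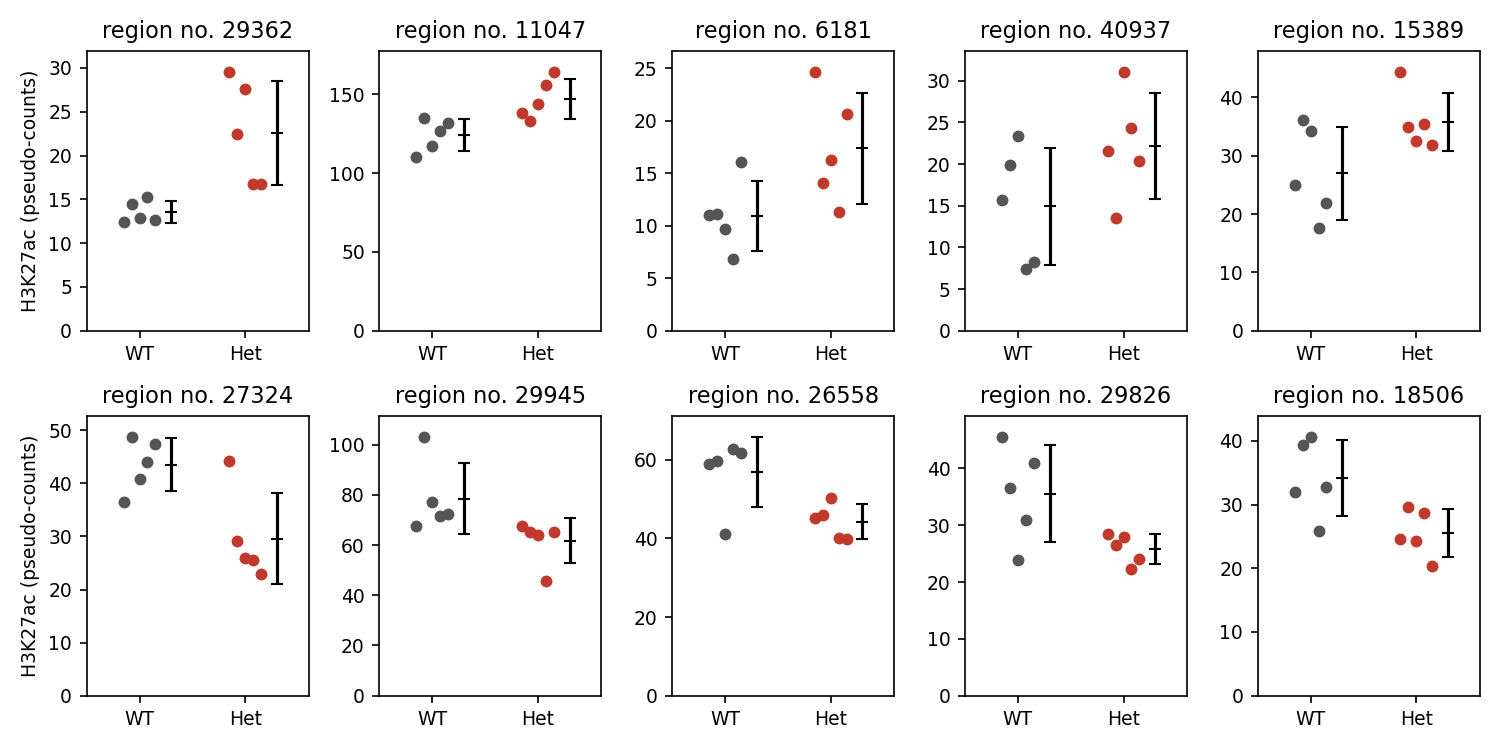
H3K27ac (pseudo-counts, axes from 0) in the 5 WT (grey) and 5 Het (red) animals at the 5 members with the smallest p on the higher side (top) and on the lower side (bottom), each titled with its number in the class enh; the black mark and bar are the mean and SD. In region 29362 (chr4:35986983-35987807) the genotypes do not overlap, and in region 27324 (chr3:55793624-55795688) Het replicate 1 lies at 44.3 among the WT values.

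The second comparison set the 6 males beside the 4 females. Sex differs between litters and not within them, so sex and litter cannot be told apart here, and the tests treat littermates as separate animals. No member passed the adjusted threshold in limma's sex test, beside 0.904% of all regions, and the smallest adjusted p was 0.0625. All regions, here and below, include some outside the autosomes, where no member lies. Of the 32614 regions of the class enh, 32406 were autosomal. Shares over autosomal regions alone were not taken. At an unadjusted p under 0.05 there were 51 members (7.85%), beside 8.29% of enhancers of matched width and 13.2% of all regions. Of these members, 21 were higher and 30 lower in males. Over all regions the balance was the other way, with 4558 higher and 2164 lower in males. The limma-voom fit called 0 members at the adjusted threshold, beside 1.13% of all regions, and 49 (7.54%) had an unadjusted p under 0.05, beside 13.3%.

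The members' median log2 difference, male minus female, was -0.036, whereas it was 0.064 over enhancers of matched width, 0.052 with mean signal matched as well and 0.027 over all regions. Above 0 were 43.2% of members and 61.5% of matched enhancers. The sign of the members' own median depended on a single library: without WT replicate 2, a female with the highest member signal, it was 0.034. The distance to matched enhancers was -0.10 and kept its sign in all 23 alternatives, from -0.14 to -0.07, the leave-one-out fits included. Other scalings moved the level: the members' median was -0.073 after median-of-ratios, -0.11 after loess and -0.011 in the limma-voom fit, beside 0.026, -0.021 and 0.081 for matched width. On 16 of 19 autosomes the members' median was below 0. All autosomes were measured in the same 10 libraries and are not replicates, and no such count was taken for matched enhancers.

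All 6 males lay below all 4 females in 12 members (1.85%), beside 0.866% of all regions, and above them in 5 members (0.769%), beside 2.28%. After the loess scaling 2 members (0.308%) passed the adjusted threshold, beside 1.67% of all regions. Both were lower in males, beside 0.175% of all regions called in that direction. They were chr15:70186295-70190369 and chr1:31157907-31159954, the latter chosen after its values were seen. Leaving out Het replicate 3 gave 17 called members (2.62%), 11 higher and 6 lower in males, beside 7.03% of all regions. Leaving out WT replicate 2 gave 2 (0.308%), beside 1.92%, and leaving out WT replicate 1 gave 1 (0.154%), beside 0.774%. In all 4 of these fits the share of members called was below that of all regions.

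Region chr15:70186295-70190369 lies 581505 bp from its nearest neighbour. Its male values were 129.6, 112 and 81.6 pseudo-counts in WT replicates 1, 3 and 5 and 113, 97.3 and 82.3 in Het replicates 1, 3 and 5. Its female values were 151 and 148 in WT replicates 2 and 4 and 124 and 131 in Het replicates 2 and 4. Males were lower on the whole, but WT replicate 1 lay within the range of the females. The means were 103 ± 19.0 in males and 139 ± 13.3 in females (SD), a log2 difference of -0.44 ± 0.12 (SE) with limma's adjusted p = 0.0625.

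At chr12:6643992-6647319 males averaged 94.5 ± 15.3 pseudo-counts and females 126 ± 9.20 (SD), with every male below every female. The log2 difference was -0.43 ± 0.12 (SE), with limma's adjusted p = 0.072. Region chr15:24647308-24651705 held 103 ± 15.9 in males and 131 ± 5.34 in females, again without overlap, with limma's adjusted p = 0.137. In all 3 regions the lowest value of all animals was that of WT replicate 5, a male.

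Higher in males was chr4:23528388-23529573, which lies 675680 bp from its nearest neighbour. Male values were 24.4, 28.8 and 31.6 pseudo-counts in WT and 28.5, 24.1 and 35.2 in Het. Female values were 16.7 and 17.2 in WT and 14.0 and 17.9 in Het. The sexes did not overlap, and the log2 difference was 0.77 ± 0.22 (SE), with limma's adjusted p = 0.0693. The next were chr13:32702290-32708213, the least dense member with 10.4 pseudo-counts per kb (log2 0.50 ± 0.15), and a region on chromosome 18 (number 20375, log2 0.68 ± 0.22).

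**Figure D4:**
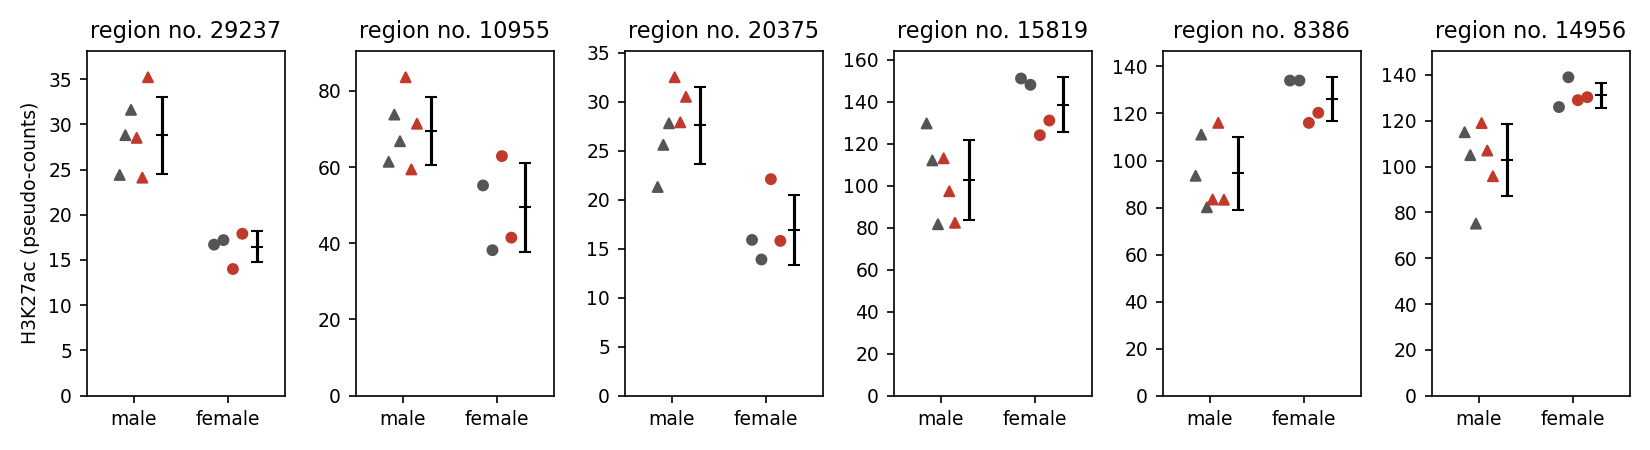
H3K27ac (pseudo-counts, axes from 0) in 6 males (triangles) and 4 females (circles) at the 3 members with the smallest p on the side higher in males (left) and the 3 on the side lower in males (right), titled with their numbers in the class enh; grey is WT, red is Het, and the black mark and bar are the mean and SD. Region 29237 (chr4:23528388-23529573) is higher in every male than in every female, and region 8386 (chr12:6643992-6647319) is lower in every male.

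The sex difference changed in steps with the distance to the nearest region. Over enhancers whose nearest region lay under 2 kb away the median, male minus female, was 0.069, and at 2 to 10 kb it was 0.060. At 10 to 50 kb it was 0.034 and at 50 to 100 kb 0.013. Within members it was -0.017 at 100 to 200 kb (n = 430), -0.055 at 200 to 500 kb (n = 178) and -0.13 at 500 kb and more (n = 42). With width matched to the members these 7 medians were 0.083, 0.072, 0.040, 0.017, -0.017, -0.052 and -0.14. The share of regions lower in males went from 36.9% in the nearest class to 78.6% in the most remote one. In the row of 6 neighbouring members on chromosome 1, all 6 had a negative difference, from -0.38 ± 0.14 to -0.16 ± 0.16 (log2 ± SE).

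Signal per kb, matched for width, went from 16.8 pseudo-counts under 2 kb to 20.1 at 500 kb and more. The width-matched medians of Het minus WT were 0.039, 0.041, 0.030, 0.021, 0.011, -0.0057 and 0.019 over the same 7 classes. They went down from the 2 to 10 kb class to the 200 to 500 kb class, over a smaller span than the sex difference, and the most remote class, with 42 members, was above the class before it. The share of regions with an absent number beside them went up over the same classes, from 25.8% to 92.9%, and its part in these medians was not tested. For the 101 members with no absent number beside them the median sex difference was -0.024, and its distance to matched enhancers was -0.093.

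Relative to enhancers with a region under 10 kb away, members at 200 to 500 kb had width-matched medians of 1.15, 1.27, 1.15, 1.28 and 1.00 times in WT replicates 1 to 5. In Het replicates 1 to 5 they were 1.08, 1.19, 1.30, 1.13 and 0.936 times. In that class the animals of litter 5, both male, were the lowest of their genotype. At 500 kb and more (n = 42) the medians were 0.997, 1.2, 1.12, 1.36 and 1.01 times in WT replicates 1 to 5. In Het replicates 1 to 5 they were 1.03, 1.13, 1.09, 1.08 and 0.958 times. There the males of litter 3 lay above the female Het replicate 4, and the female WT replicate 4 was the highest. Without WT replicate 5 the members' distance to matched enhancers in the sex difference was -0.07, and without Het replicate 5 it was -0.073.

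**Figure D5:**
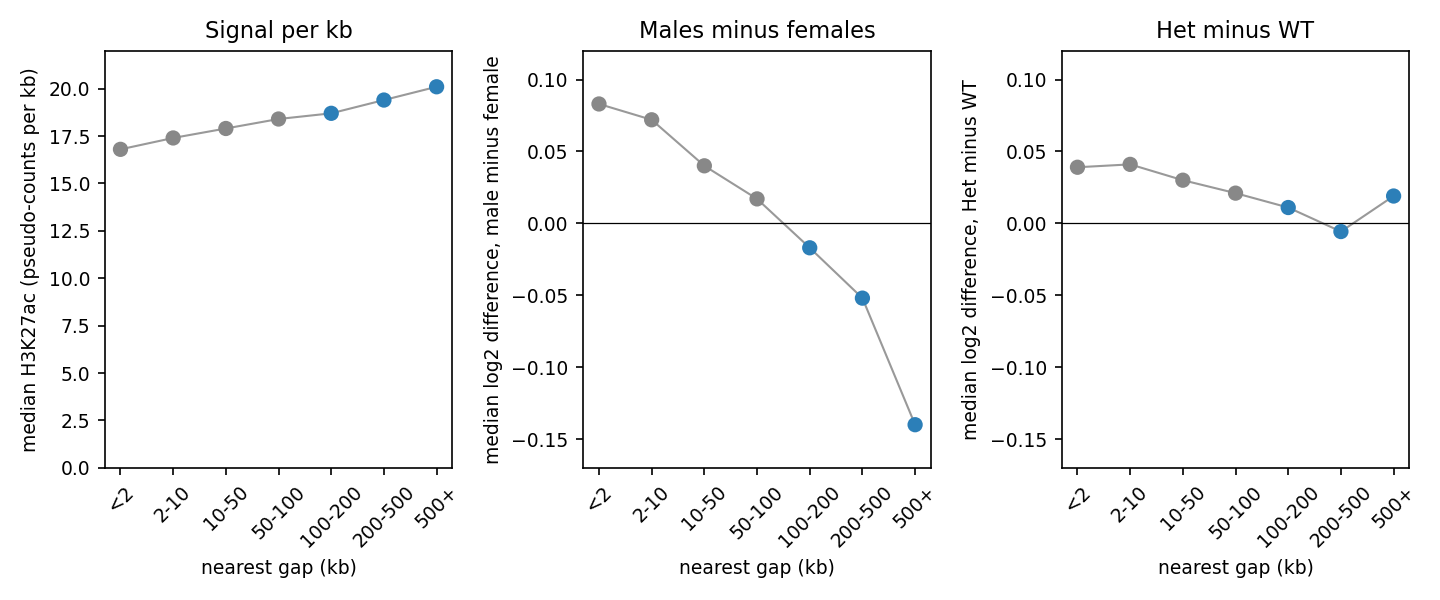
Medians by the distance to the nearest region (horizontal axis, kb; grey, other enhancers; blue, members), weighted to the widths of the members: H3K27ac per kb (left, axis from 0), the log2 difference males minus females (middle) and Het minus WT (right). The sex difference runs from 0.083 to -0.14, and the genotype difference stays between 0.041 and -0.0057.

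The third comparison asked whether the effect of genotype differs between the sexes. No member passed limma's interaction test, beside 0% of all regions. At an unadjusted p under 0.05 there were 19 members (2.92%), 17 of them with a larger Het minus WT difference in males. Beside them stood 1.36% of all regions, 402 in that direction and 292 in the other, and 1.47% of enhancers of matched width. With the litter as a block there were 40 members (6.15%), beside 3.59%, again with none past the adjusted threshold. The limma-voom fit gave 13 members (2.00%), beside 1.29%. The members' median interaction was 0.12 on the log2 scale, beside 0.033 for matched width, and 64.8% were above 0, beside 53.9%. In males alone the members' median Het minus WT difference was 0.055, beside 0.05 for matched width, and in females alone it was -0.072, beside 0.019. By litter the members' median was 0.16, -0.017 and 0.032 in male litters 1, 3 and 5. In female litters 2 and 4 it was -0.16 and 0.037, so female litter 4 lay above male litters 3 and 5. With 3 male and 2 female litters, a difference between sexes cannot be told apart from one between litters.

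The median interaction leaned on single libraries. It was 0.017 without WT replicate 2, 0.044 without Het replicate 1 and 0.26 without WT replicate 4. Its distance to matched enhancers was 0.089, and 0.018 without Het replicate 3, 0.039 without WT replicate 5 and 0.17 without Het replicate 5. By distance class the median interaction went from 0.020 under 2 kb to 0.10 at 100 to 200 kb, 0.15 at 200 to 500 kb and 0.25 beyond. The standard error of one member's interaction had a median of 0.41, so differences of this size could not be resolved in single members.

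The member with the smallest p for the interaction was chr1:138970556-138971952. Among males it held 21.7, 23.7 and 15.0 pseudo-counts in WT and 39.4, 34.1 and 28.5 in Het. Among females it held 28.3 and 31.7 in WT and 21.0 and 17.0 in Het. Het was above WT in all 3 male litters and below it in both female litters. The interaction was 1.38 ± 0.43 on the log2 scale (SE), with limma's adjusted p at 1.00. The next were a region on chromosome 18 (number 21170, 0.73 ± 0.27) and chr6:23915319-23918250 (0.88 ± 0.33), with the Het minus WT difference positive in males and negative in females at both. Without Het replicate 4 the former was at 0.45, and without WT replicate 2 the latter was at 0.55.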

How the data were processed

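H3K27ac ChIP-seq regions of 10 cortices were analysed. The submitters' processing notes name Bowtie2, edgeR and the build mm9 as used by the authors. Neither versions nor the calling of regions is stated. The deposited signal is a pseudo-count, which per the file headers is a read count adjusted to a common library size; a uniform change of acetylation would not show. The authors' deposited table also holds a p-value, an FDR, a log2 fold change and a log2 CPM for every region, the FDR over 63596 regions. Positions are as deposited.

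The members and lists were chosen with earlier results of these data known. Named regions were the members with the smallest p per test and direction (5 for genotype, 3 for sex, 3 for the interaction), the strongest, weakest, most remote, densest and widest, and those beside the limits. Because the values are not raw counts, limma 3.58.1 (trend, robust; R 4.3.3) was fitted to log2(value + 1), which understates changes of weak regions, with sex and genotype over all 50898 regions, Benjamini-Hochberg threshold 0.05. Whole reads were recovered by inverting the adjustment (100% within 0.1 read, dispersion 0.01515) and served for depth and limma-voom. Both steps were tested on simulated data.

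Labels name littermates, so the replicate number pairs animals; the pair of replicate 5 followed by elimination, and the description of its Het animal contains the term cKO. Deviations from the group means correlated within pairs at 0.23, 0.12, 0.08, 0.36 and 0.42 over all regions and at 0.11, 0.17, -0.048, 0.15 and 0.32 over members. Alternatives were pseudocounts, filters, scalings, the litter block, leaving out each library, and other limits for distance, width and matching.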

Additional observations from a re-analysis of the deposited data

Results flagged for a closer look

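In 7 of 90 groups of values at the named members, 1 library stood far from the other 4 of its genotype by Dixon's test. Chance gives this in about 1 of 20 groups that are independent and picked without regard to their values. Many of the named members were picked by their values, and all share the same 10 libraries, so that rate does not apply directly. WT replicate 2 stood high in 3 of the 7 groups: 103 pseudo-counts at chr4:78696707-78700098 (others 67.7 to 77.3), 56.0 at chr6:10708044-10710100 (others 34.3 to 39.1) and 74.4 at chr7:124000042-124002248 (others 37.1 to 45.4). Het replicate 1 stood high in 2, with 44.3 at chr15:51302059-51304080 (others 31.9 to 35.4) and 44.3 at chr3:55793624-55795688 (others 22.9 to 29.1). Het replicate 4 was low at chr4:78696707-78700098 with 45.8 (others 64.2 to 67.8), and WT replicate 3 was low at chr2:178971889-178974330 with 41.1 (others 59.0 to 62.7). WT replicate 2 and Het replicate 1 were also the libraries in which members held the largest share of the signal, 0.55% each.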

How the results depend on the processing

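No member was called between Het and WT or in the interaction under any alternative run; over the alternatives that keep all 650 members, 8 to 20 and 8 to 40 had an unadjusted p under 0.05 (1.23% to 3.08% and 1.23% to 6.15%, beside 1.67% to 5.44% and 0.835% to 3.59% of all regions). For sex, the number of called members was 0, but 2 after loess scaling (0.308%, beside 1.67% of all regions). With a 50 kb limit it was 1 of 1664 enhancers, a smaller share than the 0.904% of all regions. The number of called members was 0 to 17 with 1 library left out, the 17 being 2.62% beside 7.03%. The median Het minus WT difference ran from -0.047 to 0.059, and the distance to matched enhancers from -0.062 to 0.0088. The sex medians and the medians of the interaction under each alternative were added after seeing the data. The members' median interaction ran from 0.017 to 0.26 with one library left out, and its distance to matched enhancers from 0.018 to 0.17. The causes were not tested. The ratio of signal to matched width ran from 1.07 to 1.13 and that of the SD from 0.865 to 1.02. With the replicate block 0 members were called between Het and WT and 0 in the interaction; the sex contrast has no such fit, because litters are of one sex. Depth limits single members: few reads stand behind the weak ones, and WT replicate 5 has the fewest.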
